A study of Homo sapiens with 9 samples.

Results

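The genes described here are 43 genes of the interferon response and of antigen presentation, chosen by symbol from a named list, among the 58735 genes of the deposited count table. All 43 were found in the table, and DDX58 is listed in newer annotation as RIGI. RNAseq was carried out on cells of a clear cell renal cell carcinoma line with defective VHL and constitutive HIF2α expression. Untreated wild-type cells (control), wild-type cells treated with 10 μM of the HIF2α antagonist PT2385 for 48 h, and untreated cells of a HIF2α knockout of the line (HIF2α KO) were compared, with 3 replicates in each group. All groups were kept for 48 h at 21% O2 in DMEM with 5 mM glucose and 10% FBS, and no vehicle is named for the control cells. The labels name a single knockout line, and how it was made and from how many clones is not given in the sources used here. They do not say that replicates were separate cultures, so p-values measure only the spread between these samples, which may be technical. Between 11881000 and 14730081 reads were counted per library.

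Levels are given as CPM, counts scaled to the size of each library after TMM adjustment, and each gene with enough counts was tested with edgeR's quasi-likelihood test. A gene was called at an adjusted p under 0.05 over all tested genes. For 3 libraries against 3, the smallest p that exact permutation of the labels can reach is 0.1. Both comparisons with control share the same control libraries, so PT2385 and HIF2α KO were also compared directly with each other.

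Interferons bind receptors at the cell surface, and JAK kinases then activate STAT proteins, which with IRF9 and other interferon regulatory factors switch on a large set of antiviral genes. Many of the same signals raise the class I pathway, in which the immunoproteasome cuts proteins into peptides, the TAP transporter carries them into the endoplasmic reticulum, and class I heavy chains with β2-microglobulin present them to T cells. Clear cell renal carcinoma is known for its infiltration by T cells, and tumour cells can restrain those cells through checkpoint ligands such as PD-L1, the product of CD274.

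EPAS1, which encodes HIF2α (ENSG00000116016), was measured first as a check of the labels. Its level was 270, 264 and 233 CPM in the control libraries, 248, 248 and 219 CPM with PT2385 and 20.2, 24.9 and 21.1 CPM in HIF2α KO. Every knockout library lay far below all others, while control and PT2385 overlapped. EPAS1 was lower in HIF2α KO than in control by a log2 fold change of -3.52 (standard error 0.096, edgeR adjusted p = 2.15e-09), and the exact permutation p was 0.1, the smallest this design allows. Of 5 genes known to depend on HIF2α in this line, SLC2A1 was at 863, 925 and 941 CPM in control, 169, 183 and 201 CPM with PT2385 and 275, 245 and 257 CPM in HIF2α KO, and VEGFA was at 335, 326 and 316 CPM, 76.2, 68.8 and 80.4 CPM, and 83.6, 63 and 76.2 CPM. CA12 was at 325, 315 and 308 CPM in control, 115, 110 and 122 CPM with PT2385 and 31.4, 24.9 and 34.5 CPM in HIF2α KO. All libraries of both conditions lay below all control libraries for these genes, and the same held for EGLN3 (133, 120 and 139 CPM; 13.9, 13.6 and 16.8 CPM; 2.47, 1.87 and 2.88 CPM) and NDRG1 (739, 595 and 597 CPM; 59.8, 55.1 and 51.6 CPM; 49.2, 52 and 41.5 CPM). Their log2 fold changes ran from -3.54 to -1.46 with PT2385 and from -5.74 to -1.80 in HIF2α KO, and all 5 were called in both comparisons. The paper already names these genes among those that PT2385 lowered in the same RNAseq. Their fall with PT2385 was therefore known beforehand and is no independent check of the labels.

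The members covered a wide range of levels. Per kilobase of transcript, B2M was the most abundant in control cells, at 236 ± 16.8 CPM per kb (SD, n = 3), followed by TAPBP at 123 ± 8.2 CPM per kb. HLA-B (99.9 ± 17.6 CPM per kb), BST2 (95.8 ± 6.2 CPM per kb) and HLA-C (84.8 ± 6.51 CPM per kb) came next, and these 3 did not differ beyond their spread. At the other end OAS1 (0.221 ± 0.105 CPM per kb) and OASL (0.178 ± 0.133 CPM per kb) were barely counted, and IFITM1 had 0, 2 and 1 counts in the control libraries. In HIF2α KO, BST2 reached 157 ± 5.01 CPM per kb, second to B2M at 209 ± 3.79 CPM per kb. IFITM3 moved from 19.6 CPM per kb in control to 57.0 ± 13.4 CPM per kb in HIF2α KO.

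**Figure D1:**
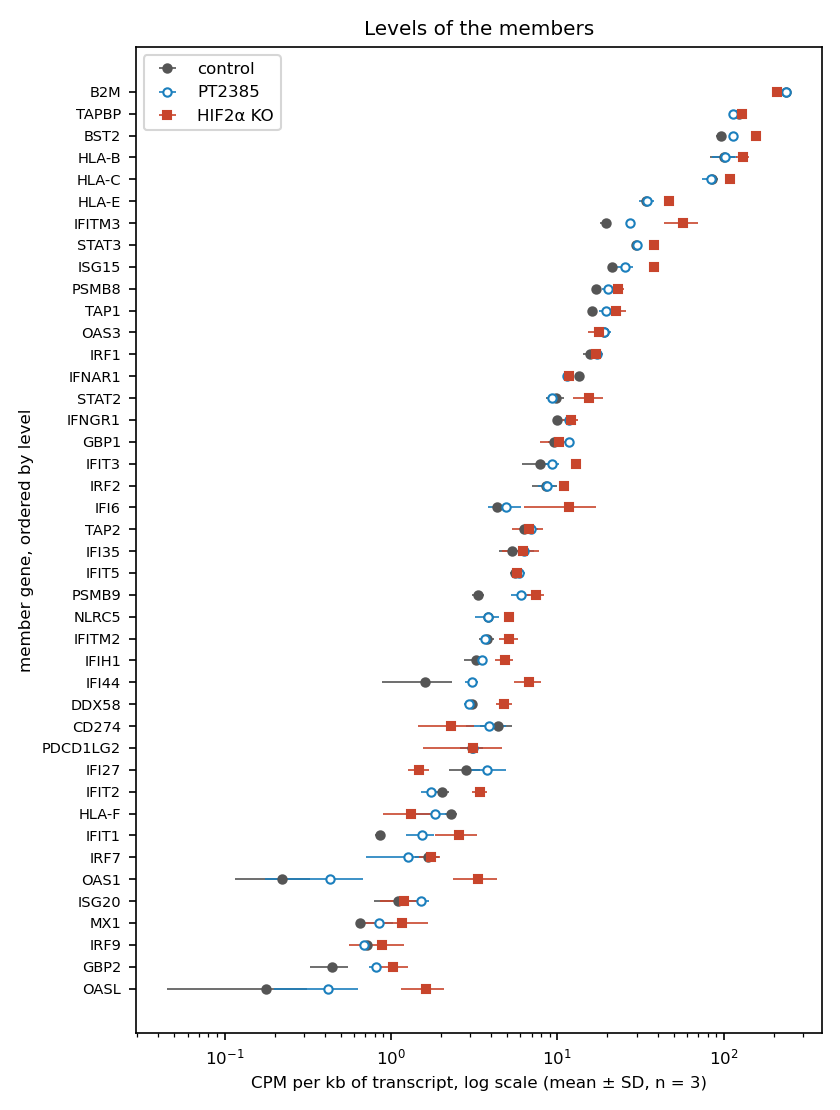
Mean level of each member in CPM per kb of transcript (log axis; bars, SD; n = 3), ordered by the mean of the 3 groups; IFITM1 is left out because no PT2385 library held a count. B2M is highest in all groups, and the gaps between control and HIF2α KO are wide for OAS1, OASL, IFI44 and IFITM3.

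With PT2385, 41 members passed the filter on low counts, and 4 of them were called, all higher (PSMB9, IFIT1, IFITM3 and GBP2). Over all 15089 genes tested, 7.70% were called, 3.08% higher and 4.62% lower. The members' median log2 fold change was 0.12, beside 0.001 for all genes. In HIF2α KO, 42 members passed and 26 were called, 23 higher and 3 lower (HLA-F, CD274 and IFI27), while 30.1% of all 15192 genes were called, 14.7% higher and 15.4% lower. The members' median was 0.42, beside 0.004 for all genes. In the direct comparison of HIF2α KO with PT2385, 42 members passed and 18 were called, 17 higher in the knockout and 1 lower (IFI27), where 18.8% of all 15402 genes were called, 8.47% higher and 10.3% lower. A member with low counts in control can pass the filter through a group in which it is high, as OAS1 and OASL did in the comparisons with HIF2α KO, so these counts describe the tested members only. IFITM1 was tested in no comparison.

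The count for PT2385 was not stable. It was 7 with upper-quartile or library-size scaling, when TAP1, BST2 and GBP1 passed as well, and 1 without PT2385 replicate 2 or without control replicate 2. It was 2 without control replicate 1 and 7 without PT2385 replicate 3. All genes called with PT2385 fell from 1162 to 574 without PT2385 replicate 2, 654 without control replicate 1, 581 without control replicate 2 and 728 without control replicate 3. The number of members called in HIF2α KO ran from 21 to 27 when 1 library was left out. In the direct comparison of HIF2α KO with PT2385 it ran from 13 to 21, and the count over all genes fell from 2897 to 1836 without PT2385 replicate 2.

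**Figure D2:**
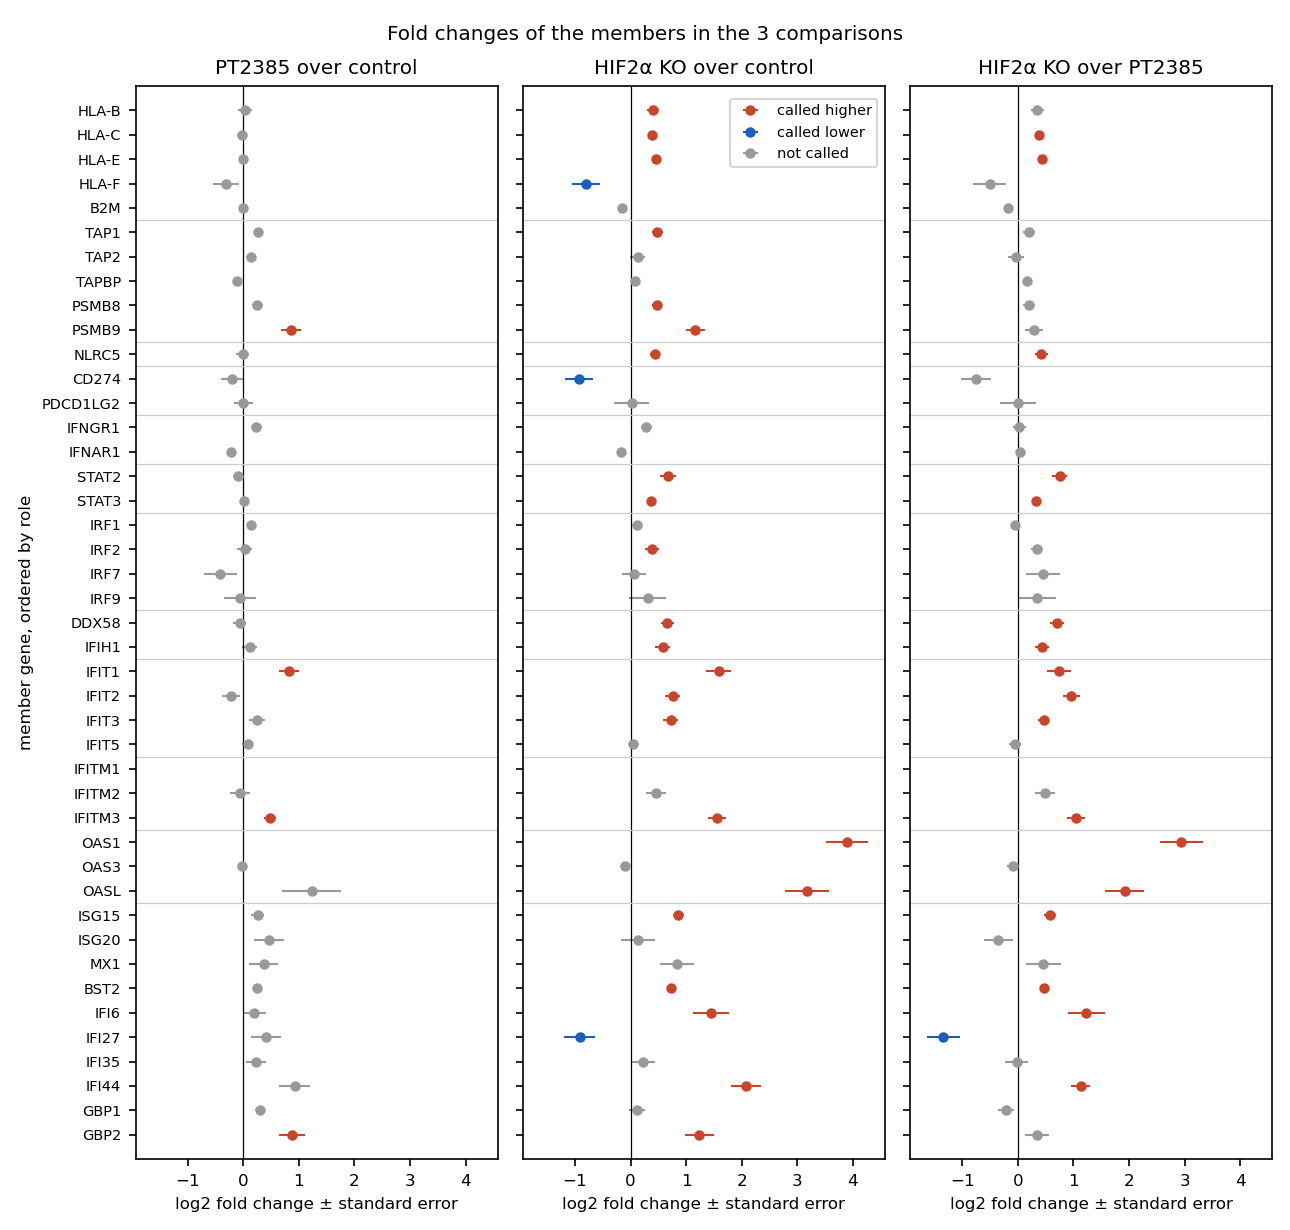
Log2 fold change of each member (points; bars, standard error; edgeR, 3 against 3 libraries) in the 3 comparisons, grouped by role. With PT2385 most members sit near 0 and 4 are called, whereas in HIF2α KO 23 are called higher and 3 lower. OAS1 and OASL lie furthest to the right and are counted among the 23. In the comparisons with HIF2α KO they passed the filter only through the knockout, so their points there are description and not a test.

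Among the class I chains, HLA-B, HLA-C and HLA-E were higher in HIF2α KO. HLA-C, a classical heavy chain, rose in HIF2α KO by a log2 fold change of 0.38 (standard error 0.065, edgeR adjusted p = 0.00111), and HLA-E, which presents signal peptides to natural killer cells, by 0.47 (edgeR adjusted p = 3.24e-04). For HLA-B the log2 fold change was 0.40 (edgeR adjusted p = 0.0183), and this call was lost without control replicate 1 (edgeR adjusted p = 0.0625) or control replicate 2 (edgeR adjusted p = 0.0686). With PT2385 the log2 fold changes of these 3 genes lay between -0.03 and 0.03, and none was called. B2M, the light chain shared by all class I molecules, was at 205, 229 and 234 CPM in control, 208, 228 and 228 CPM with PT2385 and 200, 193 and 198 CPM in HIF2α KO. It was not called in either comparison with control, although without control replicate 1 it was called lower in HIF2α KO (log2 fold change -0.22, edgeR adjusted p = 0.0392). With the replicate number as a block it was also called lower there (edgeR adjusted p = 0.0498). Class I heavy chain genes are highly similar and vary between people, so counts of single HLA genes are uncertain where reads fit more than 1 of them.

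HLA-F, a nonclassical class I chain, went the other way. Its level was 3.44, 3.13 and 3.68 CPM in control, 1.94, 2.91 and 3.35 CPM with PT2385 and 2.47, 1.25 and 2.13 CPM in HIF2α KO. The knockout libraries all lay below the control libraries, and PT2385 overlapped both groups. HLA-F was lower in HIF2α KO by a log2 fold change of -0.80 (standard error 0.26, edgeR adjusted p = 0.0366), and DESeq2 gave an adjusted p of 0.0767. The edgeR call was also lost without HIF2α KO replicate 2 (adjusted p = 0.113) and without control replicate 1, 2 or 3 (adjusted p = 0.0906, 0.0703 and 0.108). HLA-F shares 535 exon bases with HLA-F-AS1 on the opposite strand, which had 940 counts over all libraries against 315 for HLA-F, and without known strand the reads of the pair cannot be told apart.

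Genes of peptide processing and loading lie close together on chromosome 6, where PSMB8, PSMB9, TAP1 and TAP2 fall within 32821833 and 32859851 (GRCh38). PSMB9 (ENSG00000240065) encodes an immunoproteasome subunit that replaces a constitutive one. Its level was 3.69, 3.13 and 3.34 CPM in control, 6.37, 6.87 and 5.24 CPM with PT2385 and 8.18, 7.97 and 6.53 CPM in HIF2α KO. All treated and all knockout libraries lay above all control libraries, and PT2385 and HIF2α KO overlapped. PSMB9 rose by a log2 fold change of 0.86 with PT2385 (standard error 0.18, edgeR adjusted p = 0.0123) and by 1.17 in HIF2α KO (standard error 0.17, edgeR adjusted p = 4.19e-04). The direct comparison of HIF2α KO with PT2385 gave 0.29 (edgeR adjusted p = 0.271). The call with PT2385 was lost without PT2385 replicate 2 (edgeR adjusted p = 0.0719) or control replicate 2 (edgeR adjusted p = 0.0665). PSMB9 shares exon bases with PSMB8 on the opposite strand and with the noncoding PSMB8-AS1, so some of its reads may belong to these.

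PSMB8, another immunoproteasome subunit, and TAP1, a subunit of the peptide transporter, rose in HIF2α KO by log2 fold changes of 0.47 and 0.48 (edgeR adjusted p = 0.00343 and 0.00436). With PT2385 they gave 0.25 and 0.27 and were not called (edgeR adjusted p = 0.158 and 0.0641), although all treated libraries lay above all control libraries for both. TAP1 was called with PT2385 under upper-quartile (edgeR adjusted p = 0.0499) and library-size scaling (edgeR adjusted p = 0.0411), with the filter left off (edgeR adjusted p = 0.0468) and without PT2385 replicate 1 (edgeR adjusted p = 0.0162). TAP2, the other transporter subunit, and TAPBP (tapasin), which holds class I molecules at the transporter, had log2 fold changes between -0.11 and 0.14 in both comparisons with control and were not called. NLRC5, the transactivator of class I genes, was at 25, 26.3 and 26.7 CPM in control, 21.4, 26.3 and 29.8 CPM with PT2385 and 35.1, 34.3 and 35.1 CPM in HIF2α KO. The knockout libraries all lay above the other libraries, and control and PT2385 overlapped. NLRC5 rose in HIF2α KO by 0.44 on the log2 scale (standard error 0.078, edgeR adjusted p = 0.00155).

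Of the checkpoint ligands, CD274 was lower in HIF2α KO. It was at 17.4, 18.4 and 12 CPM in control, 16.5, 15.9 and 9.71 CPM with PT2385 and 9.57, 4.85 and 10.6 CPM in HIF2α KO. The knockout libraries lay below the control libraries, while PT2385 replicate 3 fell among the knockout libraries. CD274 fell in HIF2α KO by a log2 fold change of -0.92 (standard error 0.25, edgeR adjusted p = 0.0168), and the call was lost without control replicate 1 (edgeR adjusted p = 0.0631) or control replicate 2 (edgeR adjusted p = 0.076). Against PT2385 the difference was -0.75 (edgeR adjusted p = 0.0864), and it was called by DESeq2 (adjusted p = 0.0229), when the filter was left off (edgeR adjusted p = 4.18e-05) and without HIF2α KO replicate 3 (edgeR adjusted p = 0.0356) or PT2385 replicate 3 (edgeR adjusted p = 0.0306). PDCD1LG2, the neighbouring gene on chromosome 9, which encodes the related ligand PD-L2, spread from 3.6 to 11.1 CPM within the knockout group and was called in no comparison.

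The receptor chains IFNGR1 and IFNAR1 did not pass the threshold in the fit described, and some alternatives called them. IFNAR1, a chain of the type I interferon receptor, was at 85.3, 80.6 and 78.8 CPM in control, 66.1, 71 and 72.1 CPM with PT2385 and 75.2, 70.3 and 70.3 CPM in HIF2α KO. All treated and knockout libraries lay below the control libraries, by log2 fold changes of -0.23 with PT2385 (edgeR adjusted p = 0.0633) and -0.17 in HIF2α KO (edgeR adjusted p = 0.0764), and without PT2385 replicate 3 the first was called (edgeR adjusted p = 0.0411). IFNGR1, a chain of the interferon γ receptor, had a log2 fold change of 0.29 in HIF2α KO (edgeR adjusted p = 0.0581), which was called with upper-quartile scaling (edgeR adjusted p = 0.0494) and without HIF2α KO replicate 2 (edgeR adjusted p = 0.0239).

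Downstream of the receptors, STAT2, which forms the ISGF3 complex with IRF9, was at 47.3, 45.1 and 37.1 CPM in control, 42.7, 41.9 and 37.5 CPM with PT2385 and 73.3, 80.2 and 52.5 CPM in HIF2α KO. Every knockout library was above all others, and control and PT2385 overlapped. STAT2 rose in HIF2α KO by a log2 fold change of 0.68 (standard error 0.15, edgeR adjusted p = 0.00439), and STAT3 by 0.37 (standard error 0.06, edgeR adjusted p = 8.36e-04). Of the interferon regulatory factors, IRF1 was at 62, 54.4 and 51.5 CPM in control, 62.7, 58.9 and 64.3 CPM with PT2385 and 60.6, 54.1 and 66.1 CPM in HIF2α KO, with overlap between all groups. IRF2 was called higher in HIF2α KO (log2 fold change 0.39, edgeR adjusted p = 0.0358), and that call was lost without HIF2α KO replicate 1 or 2 (edgeR adjusted p = 0.0969 and 0.0792) or control replicate 2 or 3 (edgeR adjusted p = 0.161 and 0.12). IRF7 and IRF9 were at 3.86 CPM or below in every library and were not called. IRF9 shares 1544 exon bases with a readthrough gene on the same strand, which held 120 counts over all libraries against 147 for IRF9, so its level may be understated.

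The RNA sensors DDX58 (RIG-I) and IFIH1 (MDA5), which recognise viral RNA in the cytoplasm, were both higher in HIF2α KO. DDX58 was at 14.7, 12.9 and 15 CPM in control, 14.2, 14.2 and 12.5 CPM with PT2385 and 24.8, 20.1 and 21.9 CPM in HIF2α KO. The knockout libraries stood apart above the others, which overlapped. DDX58 rose in HIF2α KO by a log2 fold change of 0.66 (standard error 0.12, edgeR adjusted p = 0.0013). IFIH1 rose by 0.58 (edgeR adjusted p = 0.00926), a call lost without control replicate 2 (edgeR adjusted p = 0.0546). With PT2385 the 2 sensors had log2 fold changes of -0.07 and 0.12 and were not called.

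The IFIT genes encode proteins that bind foreign RNA, and they lie side by side on chromosome 10. IFIT1 (ENSG00000185745) was at 4.02, 3.62 and 3.51 CPM in control, 6.05, 5.68 and 8.03 CPM with PT2385 and 11.3, 14.1 and 7.83 CPM in HIF2α KO. The control libraries were the lowest, and HIF2α KO replicate 3 fell just under the highest PT2385 library. IFIT1 rose by a log2 fold change of 0.82 with PT2385 (standard error 0.19, edgeR adjusted p = 0.0183) and by 1.58 in HIF2α KO (standard error 0.22, edgeR adjusted p = 2.99e-04). The call with PT2385 was lost with all 9 libraries in 1 model (edgeR adjusted p = 0.0531) and without control replicate 2 (edgeR adjusted p = 0.0853) or control replicate 3 (edgeR adjusted p = 0.0714).

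IFIT2 was at 7.04, 6.25 and 7.52 CPM in control, 5.16, 5.98 and 6.71 CPM with PT2385 and 11, 13 and 10.9 CPM in HIF2α KO, and IFIT3 was at 15.8, 17.1 and 23.7 CPM, 20.3, 22 and 24.6 CPM, and 31, 31.4 and 30.3 CPM in the same order. For both genes the knockout libraries lay above all others, with overlap between control and PT2385. IFIT2 and IFIT3 rose in HIF2α KO by 0.76 and 0.73 on the log2 scale (edgeR adjusted p = 0.00195 and 0.00178). IFIT5, next to them, stayed between 20.8 and 25.6 CPM in all 9 libraries and was not called. The tips of IFIT2 and IFIT3 overlap LIPA, a well expressed gene on the opposite strand.

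IFITM3 (ENSG00000142089) encodes a membrane protein that restricts virus entry. It was at 11.9, 13 and 11.1 CPM in control, 17.3, 16.4 and 16.8 CPM with PT2385 and 33.6, 43.6 and 27.3 CPM in HIF2α KO. The 3 groups did not overlap, with PT2385 in between. IFITM3 rose by a log2 fold change of 0.48 with PT2385 (standard error 0.11, edgeR adjusted p = 0.0177) and by 1.55 in HIF2α KO (standard error 0.16, edgeR adjusted p = 3.67e-05), and HIF2α KO was above PT2385 by 1.05 (edgeR adjusted p = 8.12e-04). The call with PT2385 was lost with all 9 libraries in 1 model (edgeR adjusted p = 0.0939) and without PT2385 replicate 2 (edgeR adjusted p = 0.0638), control replicate 1 (edgeR adjusted p = 0.0633) or control replicate 3 (edgeR adjusted p = 0.0709). IFITM2 gave 0.46 in HIF2α KO and was not called (edgeR adjusted p = 0.081), and IFITM1 had at most 2 counts in any library. The IFITM genes are near-identical over long stretches, so the division of reads among them is uncertain.

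OAS1 and OASL were higher in HIF2α KO, from very low levels. OAS1 (ENSG00000089127), an enzyme that makes the activator of the nuclease RNase L, had 5, 6 and 2 counts in control, 12, 3 and 13 counts with PT2385 and 85, 89 and 53 counts in HIF2α KO. OASL, a related protein without that enzyme activity, had 4, 4 and 13 counts in control, 7, 21 and 28 counts with PT2385 and 56, 102 and 65 counts in HIF2α KO. All knockout libraries lay above the other 6 for both genes, and PT2385 overlapped control. With PT2385 OASL gave a log2 fold change of 1.23 and was not called (edgeR adjusted p = 0.21). It was called with the filter left off (edgeR adjusted p = 0.0437) and without PT2385 replicate 1 (edgeR adjusted p = 0.0481). In the comparisons with HIF2α KO, OAS1 and OASL passed the filter only through the knockout, so no test is given for them. Counts of called members in those comparisons still include them. The ratio of summed counts in HIF2α KO to those in control was 15 for OAS1 (95% exact interval for counting error 8.6 to 28.6) and 9.13 for OASL (5.83 to 15), and the latter became 16 without control replicate 3. OAS3, which follows OAS1 on chromosome 12, was well expressed at 105 to 139 CPM in all libraries and was called in no comparison.

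**Figure D3:**
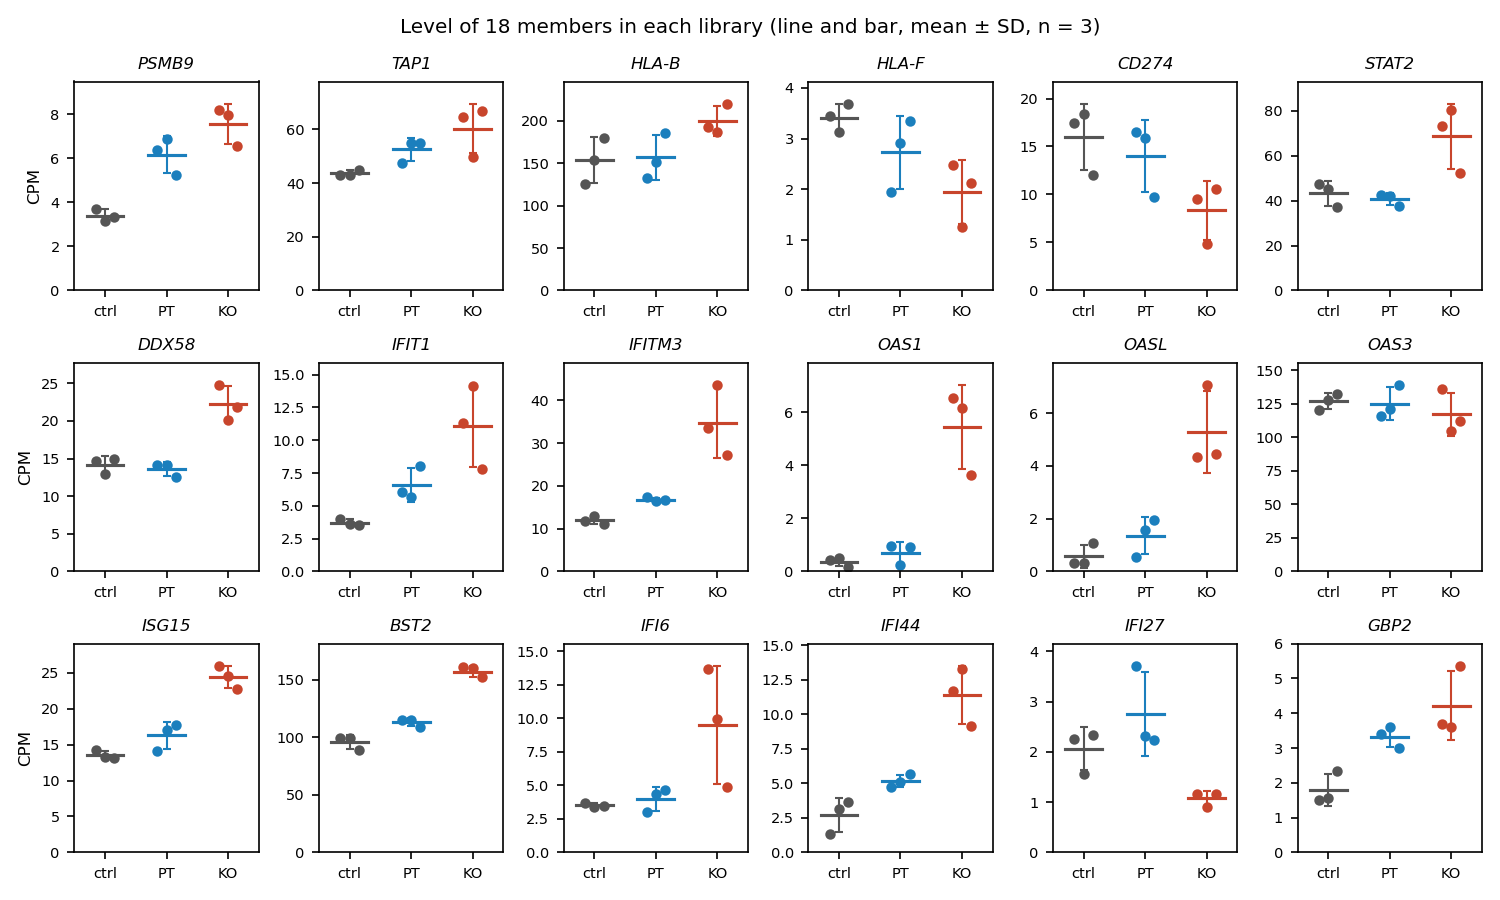
Level in CPM of 18 members in each library (points, replicates 1 to 3 from left to right; lines and bars, mean ± SD; n = 3; axes from 0) in control (ctrl), PT2385 (PT) and HIF2α KO (KO). The knockout points lie above all others for DDX58, IFITM3, OAS1, OASL, ISG15, BST2 and IFI44. They lie below the control points for HLA-F, CD274 and IFI27. For OAS3 (136, 105 and 112 CPM) they run from within the range of the other libraries to below it.

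The other induced effectors were called in both directions in HIF2α KO. ISG15, the ubiquitin-like modifier, was at 14.2, 13.3 and 13.2 CPM in control, 14.1, 17 and 17.7 CPM with PT2385 and 25.9, 24.5 and 22.8 CPM in HIF2α KO, a log2 fold change of 0.86 (standard error 0.1, edgeR adjusted p = 8.8e-05). BST2 (tetherin), which holds budding virus at the cell surface, was at 99.4, 99.5 and 88.7 CPM, 115, 115 and 109 CPM, and 161, 160 and 152 CPM, and it rose in HIF2α KO by 0.73 (standard error 0.068, edgeR adjusted p = 1.42e-05). For BST2 the 3 groups did not overlap, and for ISG15 the knockout stood apart. BST2 gave 0.24 with PT2385 (edgeR adjusted p = 0.0568), which was called with upper-quartile scaling (edgeR adjusted p = 0.0469), library-size scaling (edgeR adjusted p = 0.0391), all 9 libraries in 1 model (edgeR adjusted p = 0.0468), the filter left off (edgeR adjusted p = 0.036) and without PT2385 replicate 3 (edgeR adjusted p = 0.0269).

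IFI44 was at 1.34, 3.13 and 3.68 CPM in control, 4.76, 5.08 and 5.66 CPM with PT2385 and 11.7, 13.3 and 9.14 CPM in HIF2α KO. Its groups did not overlap, in the order control, PT2385, HIF2α KO. IFI44 rose in HIF2α KO by a log2 fold change of 2.08 (standard error 0.27, edgeR adjusted p = 1.91e-04). With PT2385 it gave 0.92 and was not called by edgeR (adjusted p = 0.0653), but it was by DESeq2 (adjusted p = 0.0416), by edgeR when the filter was left off (adjusted p = 7.26e-04) and by edgeR without control replicate 3 (adjusted p = 0.0481). IFI6, a mitochondrial and endoplasmic reticulum protein, was at 3.69, 3.37 and 3.43 CPM in control, 2.98, 4.33 and 4.68 CPM with PT2385 and 13.7, 9.98 and 4.88 CPM in HIF2α KO. The knockout libraries were the 3 highest but spread widely, and the rise in HIF2α KO was 1.45 on the log2 scale (standard error 0.32, edgeR adjusted p = 0.00554).

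GBP2, a guanylate-binding GTPase, was at 1.51, 1.56 and 2.34 CPM in control, 3.39, 3.59 and 3 CPM with PT2385 and 3.7, 3.6 and 5.36 CPM in HIF2α KO. The control libraries were the lowest, and the knockout libraries all lay above the PT2385 libraries, the nearest by very little. GBP2 rose by a log2 fold change of 0.87 with PT2385 (standard error 0.24, edgeR adjusted p = 0.0449) and by 1.24 in HIF2α KO (standard error 0.26, edgeR adjusted p = 0.00377). DESeq2 gave an adjusted p of 0.109 with PT2385, and the edgeR call was lost with all 9 libraries in 1 model (adjusted p = 0.057) and without PT2385 replicate 1 or 2 (adjusted p = 0.0696 and 0.168) or control replicate 1 or 2 (adjusted p = 0.17 and 0.169). GBP1, its neighbour on chromosome 1, gave 0.31 with PT2385 (edgeR adjusted p = 0.0582), which was called with upper-quartile scaling (edgeR adjusted p = 0.0455), library-size scaling (edgeR adjusted p = 0.0408), the filter left off (edgeR adjusted p = 0.0395) or without PT2385 replicate 3 (edgeR adjusted p = 0.0431).

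IFI27 was the effector that fell. It was at 2.26, 1.56 and 2.34 CPM in control, 3.71, 2.32 and 2.24 CPM with PT2385 and 1.16, 0.901 and 1.17 CPM in HIF2α KO, from 13 to 46 counts per library. The knockout libraries were the lowest, and control and PT2385 overlapped. IFI27 fell in HIF2α KO by a log2 fold change of -0.92 against control (standard error 0.28, edgeR adjusted p = 0.031) and -1.34 against PT2385 (standard error 0.3, edgeR adjusted p = 0.00907). DESeq2 gave an adjusted p of 0.114 against control, and the edgeR call there was lost without HIF2α KO replicate 1 or 2 (adjusted p = 0.0669 and 0.0966) or control replicate 1 or 3 (adjusted p = 0.104 and 0.111). MX1, the antiviral GTPase, was at 1.76 to 1.89 CPM in control and 4.78, 2.77 and 2.13 CPM in HIF2α KO and was not called (log2 fold change 0.84, edgeR adjusted p = 0.0636). It was called when the filter was left off (edgeR adjusted p = 0.012) and without HIF2α KO replicate 3 (edgeR adjusted p = 0.0102), among other fits. ISG20 and IFI35 were called in no comparison.

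Among the effectors, HIF2α KO replicate 3 was often the lowest of the knockout libraries. Over all 23 members called higher in HIF2α KO it was the lowest in 13, and replicate 2 was in 8. Among the 11 IFIT, IFITM, OAS and other effectors called higher in HIF2α KO, replicate 3 was the lowest in 9, as for IFI6, IFIT1, OAS1 and IFITM3, whereas the class I gene HLA-B was highest there. Without it 27 members were called in HIF2α KO in place of 26. Its total count, 14730081, was the largest of the series, and the share of counts on mitochondrial genes, 1.04%, lay within the range of 0.96 to 1.18% over all libraries. In bulk RNA, fewer cells of a type and less RNA per cell cannot be told apart.

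**Figure D4:**
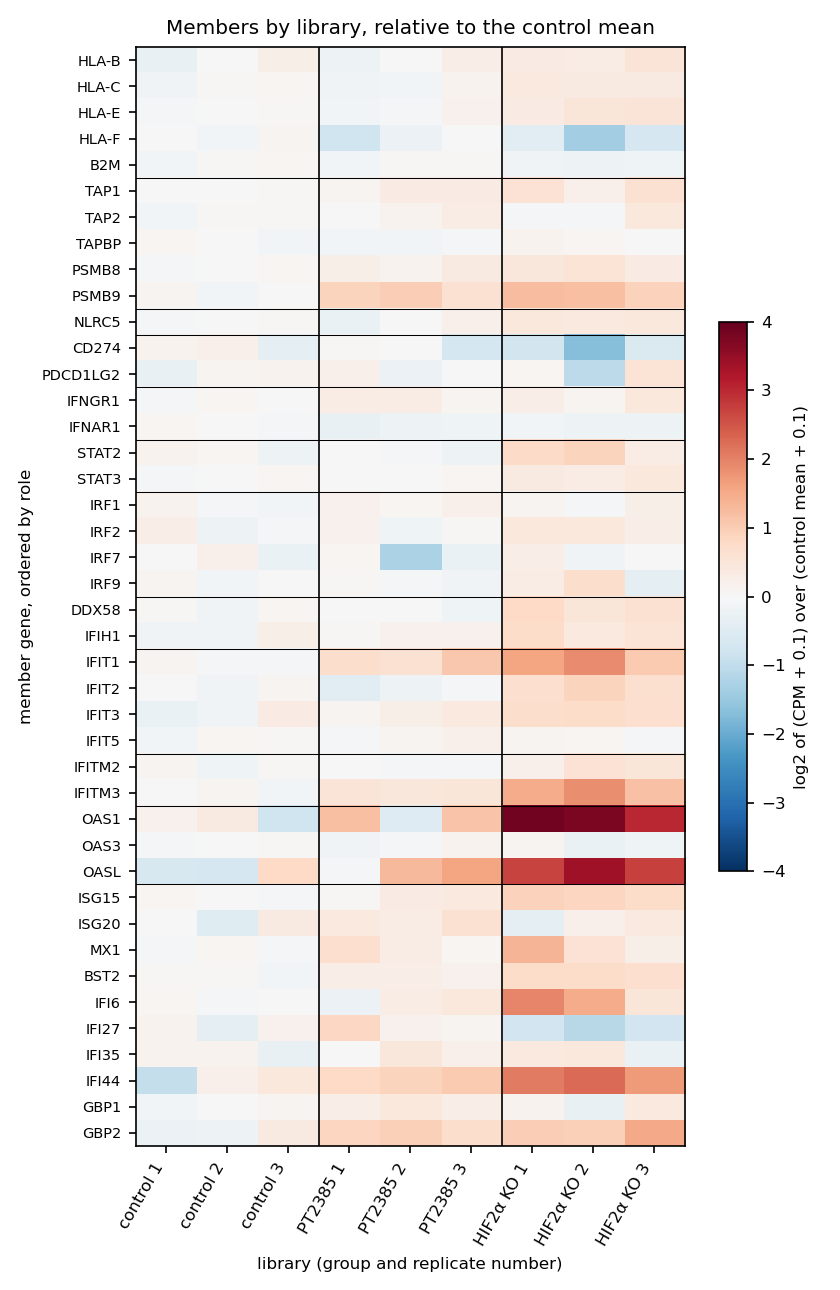
Log2 ratio of each member's CPM to the control mean (0.1 CPM added to both) in the 9 libraries, for the 42 members other than IFITM1, with lines between roles and groups. The knockout columns are red for most effectors and blue for HLA-F, CD274 and IFI27, and replicate 3 is paler than replicates 1 and 2 for IFI6, IFIT1 and STAT2.

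Compared directly with PT2385, HIF2α KO was higher for HLA-C, HLA-E, NLRC5, STAT2, STAT3, both RNA sensors, IFIT1, IFIT2, IFIT3, IFITM3, OAS1, OASL, ISG15, BST2, IFI6 and IFI44. For OAS1 and OASL, which passed the filter through the knockout, the ratios of summed counts were 7.75 and 3.81 (95% exact intervals for counting error 5.22 to 11.9 and 2.83 to 5.2). On the log2 scale IFIT2 differed by 0.96 (edgeR adjusted p = 0.00129), STAT2 by 0.75 (edgeR adjusted p = 0.00311), DDX58 by 0.71 (edgeR adjusted p = 0.00177) and BST2 by 0.47 (edgeR adjusted p = 6.04e-04). None of the 5 genes of peptide processing was called here, although TAP1 was without HIF2α KO replicate 2 (edgeR adjusted p = 0.0425) and TAPBP without HIF2α KO replicate 3 (edgeR adjusted p = 0.0337). HLA-B, with a difference of 0.35, was not called (edgeR adjusted p = 0.055) but was with upper-quartile scaling (edgeR adjusted p = 0.0465), with DESeq2 (adjusted p = 0.0194), with the filter left off (edgeR adjusted p = 5.07e-04) and without PT2385 replicate 3 (edgeR adjusted p = 0.00458). IRF2 was called with the filter left off (edgeR adjusted p = 0.0443) and without HIF2α KO replicate 3 (edgeR adjusted p = 0.0411) or PT2385 replicate 1 (edgeR adjusted p = 0.0357). HLA-C, NLRC5, IFIH1, IFIT1 and IFI6 each lost the call without at least 1 library. For HLA-C that was PT2385 replicate 2 (edgeR adjusted p = 0.0565). NLRC5 lost it without HIF2α KO replicate 1 or 2 or PT2385 replicate 1 or 2 (edgeR adjusted p = 0.0864, 0.0515, 0.0661 and 0.0869), as did IFIT1 (edgeR adjusted p = 0.11, 0.142, 0.0981 and 0.149) and IFI6 (edgeR adjusted p = 0.107, 0.0586, 0.071 and 0.0682). IFIH1 lost it without HIF2α KO replicate 1 or PT2385 replicate 1, 2 or 3 (edgeR adjusted p = 0.134, 0.0864, 0.079 and 0.0521).

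Promoters were searched because many effectors moved together in HIF2α KO. RefSeq promoters (GRCh38.p14, 250 bases before to 50 after the start) were found for 34 of the 43 members, and both strands were searched for the core of the interferon-stimulated response element (ISRE), TTTCNNTTT, in which N is any base. It was present in 23 of 34 members (67.6%) and in 2901 of all 27305 promoters (10.6%). Among members called higher in HIF2α KO, 11 of 17 held it (64.7%), and among those tested and not called higher, 11 of 16 did (68.8%). Among the 11 that rose at least 1.5-fold, 9 held it (81.8%), beside the 68.8% of those not called higher. Of these 11, 2 held the gamma-activated site, 6 the reversed CCAAT box and 5 the hypoxia response element core described next. The motifs differ in their share of all promoters, so these counts do not rank them. Members were chosen as interferon response and antigen presentation genes, so their higher ISRE share than all promoters is no result about HIF2α KO. The 17 and the 11 include OAS1, which passed the filter only through the knockout, so its place in them is description and not a test. The gamma-activated site TTCNNNGAA was in 8 of 34 members (23.5%) and 7.88% of all promoters, with 2 of 17 members that were called higher and 5 of 16 that were not. The reversed CCAAT box ATTGG was in 15 of 34 (44.1%) and 35.7%, with 10 of 17 that were called higher and 4 of 16 that were not, and the hypoxia response element core, ACGTG or GCGTG, was in 15 of 34 (44.1%) and 48.4%, with 9 of 17 and 6 of 16. Matches of different motifs can share bases, and a match is a description of the letters and not a site.

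The stretches below lie before the start, read on the strand of the gene, with ISRE core matches on either strand in capitals. A match that runs past the start is not marked, as in IFIT5, which has another match from base -4. IFIT1 (chr10:89392416-89392558, + strand), OAS1 (chr12:112906879-112906947, + strand), IFITM3 (chr11:320861-320941, - strand) and BST2 (chr19:17405715-17405789, - strand) are shown as effectors that rose in HIF2α KO, IFIT5 (chr10:89414493-89414567, + strand) and OAS3 (chr12:112938302-112938473, + strand) as their neighbours that were not called, and IFI27 (chr14:94110598-94110680, + strand) as the effector that fell.
IFIT1: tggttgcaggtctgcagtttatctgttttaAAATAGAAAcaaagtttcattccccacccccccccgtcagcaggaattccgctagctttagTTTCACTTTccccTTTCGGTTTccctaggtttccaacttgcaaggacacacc
OAS1: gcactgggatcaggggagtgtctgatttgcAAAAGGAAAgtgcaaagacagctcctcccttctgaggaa
IFITM3: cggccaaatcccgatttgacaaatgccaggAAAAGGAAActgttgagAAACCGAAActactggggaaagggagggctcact
BST2: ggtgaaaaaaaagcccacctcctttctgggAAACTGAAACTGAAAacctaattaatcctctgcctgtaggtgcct
IFIT5: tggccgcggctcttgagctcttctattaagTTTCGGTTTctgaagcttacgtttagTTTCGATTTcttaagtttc
OAS3: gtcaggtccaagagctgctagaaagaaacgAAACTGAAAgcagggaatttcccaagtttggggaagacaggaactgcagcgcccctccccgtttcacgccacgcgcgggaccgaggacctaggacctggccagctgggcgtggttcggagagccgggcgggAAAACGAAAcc
IFI27: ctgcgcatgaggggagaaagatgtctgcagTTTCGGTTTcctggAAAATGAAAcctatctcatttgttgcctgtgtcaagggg
The stretch of OAS1 holds 1 match, and that of its neighbour OAS3, which was not called, holds 2.

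A further 97 genes of the interferon and antigen presentation pathways were examined, of which 68 were tested with PT2385 and 5 were called (7.35%), beside 7.70% of all tested genes. USP18, LGALS3BP, IFNAR2 and RFXAP were among those called, and each of these 4 calls was lost when some single libraries were left out. USP18, which removes ISG15 from proteins, was at 5.87, 4.86 and 4.1 CPM in control, 8.55, 6.87 and 7.68 CPM with PT2385 and 9.8, 11.4 and 6.46 CPM in HIF2α KO, and LGALS3BP, a secreted glycoprotein, was at 233, 245 and 230 CPM, 269, 278 and 291 CPM, and 292, 306 and 261 CPM. For both genes the control libraries were the lowest. With PT2385 USP18 rose by a log2 fold change of 0.63 (standard error 0.17, edgeR adjusted p = 0.0444) and LGALS3BP by 0.24 (standard error 0.059, edgeR adjusted p = 0.0275). The call of USP18 was lost with DESeq2 (adjusted p = 0.0634), with all 9 libraries in 1 model (edgeR adjusted p = 0.11) and without PT2385 replicate 1, 2 or 3 or control replicate 2 or 3 (edgeR adjusted p = 0.0945, 0.0807, 0.0569, 0.149 and 0.152). That of LGALS3BP was lost with all 9 libraries in 1 model (edgeR adjusted p = 0.0522) and without PT2385 replicate 2 or control replicate 1, 2 or 3 (edgeR adjusted p = 0.124, 0.111, 0.0716 and 0.103).

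IFNAR2, the second chain of the type I receptor, was at 26.2, 24.4 and 24.6 CPM in control, 19.8, 18.5 and 21.2 CPM with PT2385 and 18.3, 16.8 and 19.3 CPM in HIF2α KO, and RFXAP, a factor bound to HLA promoters, was at 13.1, 10.6 and 9.44 CPM, 7.26, 7.92 and 6.36 CPM, and 8.03, 9.28 and 6.18 CPM. The control libraries were the highest for both genes. IFNAR2 fell with PT2385 by a log2 fold change of -0.34 (standard error 0.093, edgeR adjusted p = 0.0445), a call lost with upper-quartile (edgeR adjusted p = 0.0529) and library-size scaling (edgeR adjusted p = 0.0573) and with DESeq2 (adjusted p = 0.0886). It was also lost with all 9 libraries in 1 model (edgeR adjusted p = 0.0526) and without PT2385 replicate 1 or 2 or control replicate 1, 2 or 3 (edgeR adjusted p = 0.067, 0.195, 0.159, 0.13 and 0.101). RFXAP fell by -0.63 (standard error 0.16, edgeR adjusted p = 0.0307), a call lost with all 9 libraries in 1 model (edgeR adjusted p = 0.0521) and without PT2385 replicate 2 or 3 or control replicate 1 or 2 (edgeR adjusted p = 0.0627, 0.0584, 0.137 and 0.0948). In HIF2α KO, USP18, LGALS3BP and IFNAR2 were called in the same direction as with PT2385. RFXAP was not (edgeR adjusted p = 0.0654), but fits that called it included those with the filter left off (edgeR adjusted p = 0.0155), with all 9 libraries in 1 model (edgeR adjusted p = 0.0437) and without HIF2α KO replicate 2 (edgeR adjusted p = 0.0296).

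In HIF2α KO, 73 of the 97 other genes were tested and 38 were called (52.1%), 31 higher and 7 lower, where 30.1% of all tested genes were called, 14.7% higher and 15.4% lower. By list, 22 of 33 tested induced genes were called (66.7%), all higher, 9 of 21 signalling genes (42.9%, 5 higher and 4 lower) and 7 of 19 antigen presentation genes (36.8%, 4 higher and 3 lower). Genes near 0 counts in control, such as OAS2, could pass the filter through the knockout in which they were high, so these shares describe tested genes only. The median log2 fold changes of these lists were 0.40, 0.04 and 0.12, beside 0.004 for all genes. Leaving aside genes with a mean under 20 counts, the largest changes were in OAS2, IFI44L, UBE2L6, TRIM22 and HERC5. OAS2 had 3, 0 and 3 counts in control, 1, 3 and 2 counts with PT2385 and 56, 48 and 20 counts in HIF2α KO, and the ratio of HIF2α KO to control was 17.8 (95% exact interval for counting error 7.93 to 49.3), or 11.8 without control replicate 2. IFI44L, a relative of IFI44, was at 1.26, 0.658 and 1.67 CPM in control, 3.39, 1.57 and 2.51 CPM with PT2385 and 6.71, 4.43 and 3.3 CPM in HIF2α KO, and UBE2L6, an enzyme that conjugates ISG15, was at 3.02, 1.98 and 2.59 CPM, 3.63, 4.93 and 3.21 CPM, and 8.95, 13.2 and 7.28 CPM.

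TRIM22, an antiviral ubiquitin ligase, was at 9.38, 9.38 and 9.61 CPM in control, 11.5, 10.5 and 11.5 CPM with PT2385 and 37, 36.3 and 26.3 CPM in HIF2α KO, and HERC5, the main ligase for ISG15, was at 2.85, 3.37 and 2.09 CPM, 2.1, 2.69 and 3.56 CPM, and 8.03, 10.5 and 9.75 CPM. All knockout libraries lay above all control libraries for these 4 genes, and above all PT2385 libraries except for IFI44L. UBE2L6, TRIM22 and HERC5 rose by 1.97, 1.82 and 1.78 on the log2 scale (edgeR adjusted p = 1.83e-04, 3.55e-06 and 6.21e-05). IFI44L, with 15, 8 and 20 counts in control, passed the filter only through the knockout. Its log2 fold change of 2.01 is therefore description and not a test. IFI16, a DNA sensor, was at 32, 28.2 and 27.4 CPM in control, 32.3, 32.9 and 25.2 CPM with PT2385 and 58.7, 65.5 and 51.2 CPM in HIF2α KO, again with the knockout apart. In the direct comparison with PT2385, 18 of 73 tested were called (24.7%), 15 higher and 3 lower, where 18.8% of all genes were called, 8.47% higher and 10.3% lower. These were 15 of 34 tested induced genes (44.1%), 2 of 21 signalling genes (9.52%) and 1 of 18 antigen presentation genes (5.56%). Here too, genes with few counts outside the knockout, such as OAS2, could pass the filter through the knockout, so these shares describe tested genes only. The largest changes were in OAS2 (ratio 19.8, 95% exact interval 8.82 to 54.9), HERC5, TRIM22, UBE2L6 and IFI16, the last 4 with log2 fold changes of 1.75, 1.57, 1.32 and 0.96 (edgeR adjusted p = 2.18e-04, 3.36e-05, 0.00355 and 3.43e-04).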

How the data were processed

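RNA of 9 libraries, 3 in each group, was sequenced. Per the submitters' processing notes and the paper's methods, cutadapt was used for trimming, FastQC for quality, STAR for alignment to hg38 and featureCounts for the gene counts, which the authors deposited unnormalized as a count table. Versions, annotation release and strandedness are not given in the sources used here, so genes that overlap another gene are uncertain. All columns were matched to samples by label, with 0 left over, and 58207 of the 58735 genes were paired with a symbol and position through GENCODE annotation. Older symbols of listed genes were looked up in gene name lists that included RefSeq synonyms.

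Each pair of groups was fitted on its own with edgeR 4.0.16 in R 4.3.3 (TMM scaling, filterByExpr with a minimum of 10 counts, quasi-likelihood test, Benjamini-Hochberg adjustment over all tested genes). The steps were tested on simulated counts. TMM factors ran from 0.988 to 1.02. Counts carry counting error, and replicates of each group differed by more than it. Levels per kb use the length of the canonical transcript, a definition chosen after the data were seen, and fold changes of low genes depend on the model's prior count.

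Members and gene lists were chosen with earlier results of these data known. Values in every library are given for members called with PT2385 or in HIF2α KO at a log2 fold change of at least 0.58 in size, for the highest member of each role that has none, and for EPAS1 and 5 HIF2α targets. From the other pathway lists, up to 5 called genes with the largest change and a mean of 20 counts or more are named per comparison, apart from results left out because they are withheld for evaluation. Values for B2M, MX1, IFITM1, CD74, HLA-DMA, IFNE and the marker genes, ranges of other members and the printed promoter stretches fall outside that rule and were chosen after values were seen. Alternatives were DESeq2 1.42.0, scaling by RLE, by the upper quartile or by library size, a fit without the filter, a floor of 10 counts in all libraries, blocking on replicate number, a joint model of the 9 libraries, and leaving out each library.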

Additional observations from a re-analysis of the deposited data

How the results depend on the processing

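In HIF2α KO against control, 20 of the 26 called members were called in the same direction under every alternative that tested them, and in the direct comparison 13 of 18 were. Both tallies include OAS1 and OASL, which passed the filter through the knockout and lend them no support. With PT2385 this held for 0 of 4 (edgeR), each of which was lost without at least 2 of the libraries. No fold change of a member that was called in either fit changed sign, and sign changes where neither fit made a call were not counted as reversals. Members called with PT2385 numbered 4 in the fit described, 7 with upper-quartile scaling, 7 with library-size scaling, 9 with no filter on low counts, 2 with all 9 libraries in 1 model, and from 1 to 7 when a library was left out. All genes called with PT2385 ran from 574 to 1451 when a library was left out and reached 1701 with no filter. Genes called in HIF2α KO against PT2385 numbered 2897 and ran from 1836 to 3190 when a library was left out, with 3431 in the model of all 9 libraries and 3606 with no filter. The cause was not tested. With the replicate number as a block, genes called with PT2385 rose from 1162 to 2305 and members from 4 to 9. The block also called IFNAR1 lower with PT2385 and in HIF2α KO (edgeR adjusted p = 0.0219 and 0.037) and IFNGR1 higher in HIF2α KO (edgeR adjusted p = 0.0488). With PT2385 it called TAP1, BST2, IFI44, GBP1 and CD74 higher (edgeR adjusted p = 0.0171, 0.00669, 0.0115, 0.0174 and 0.0325). In HIF2α KO it called B2M lower and MX1 higher (edgeR adjusted p = 0.0498 and 0.0387). Against PT2385 it called HLA-B, TAPBP and IRF2 higher in HIF2α KO (edgeR adjusted p = 0.00251, 0.0473 and 0.0329). The replicate numbers were not taken to pair the samples, since the deviations of libraries with the same number did not all correlate by more than 0.1 across genes. In the 3 comparisons the correlation was 0.303, 0.198 and 0.231 for number 1, 0.0744, 0.0114 and 0.0383 for number 2 and 0.296, 0.309 and 0.294 for number 3. Each library correlated best with its own number for PT2385 against control, but HIF2α KO replicate 2 did so with replicate 1 of control (0.18) and of PT2385 (0.0935). Other counts over all genes and over all members stayed within 1.5 times, while counts of the other pathway lists, some of them small, moved more with the block. Low counts limit OAS1, OASL, GBP2, IFI27, HLA-F and IRF9.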

Other observations

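The genes of class II presentation and the interferons themselves were close to absent. Of 10 class II genes, HLA-DRA, HLA-DRB1, HLA-DPB1, HLA-DQA1 and HLA-DQB1 had 0 counts in all 9 libraries, and CIITA, the class II transactivator, had at most 8 counts in any library. HLA-DMA had 12, 13 and 8 counts in control, 8, 6 and 10 counts with PT2385 and 7, 12 and 5 counts in HIF2α KO. Its mean was lower in HIF2α KO than in control, at 0.572 and 0.915 CPM. CD74, the invariant chain, was higher, at 7.71, 6.42 and 6.85 CPM in control, 8.07, 11.1 and 10.8 CPM with PT2385 and 13.6, 11.5 and 11.7 CPM in HIF2α KO. Both conditions lay above all control libraries, and CD74 was called higher in HIF2α KO (log2 fold change 0.82, standard error 0.14, edgeR adjusted p = 0.001), while PT2385 gave an edgeR adjusted p of 0.073. None of 8 interferon genes passed the filter. IFNA1, IFNK, IFNG, IFNL1, IFNL2 and IFNL3 had 0 counts in every library, IFNB1 had 1 count in a single knockout library, and IFNE had 6, 5 and 8 counts in control, 7, 5 and 1 counts with PT2385 and 12, 13 and 5 counts in HIF2α KO. At this depth 0 counts do not exclude a very rare transcript.

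Markers of other cell types were summed in each library. The 10 immune markers summed to 1.46 to 2.31 CPM per library, with 7 of them at 3 counts or fewer everywhere, CD3E and NKG7 at 0, and CSF1R and CD14 reaching 10 counts in some library. The 5 endothelial markers had at most 3 counts in any library, with PECAM1 and VWF at 0. Of 4 fibroblast markers, DCN was at 0, and their sum was 9.3, 10.1 and 8.78 CPM in control, 11.1, 13.3 and 10.5 CPM with PT2385 and 5.32, 7 and 5.22 CPM in HIF2α KO. The other 3 did not move together. COL1A1 was at 5.78, 6.34 and 4.6 CPM in control and 1.85, 2.7 and 3.09 CPM in HIF2α KO and was called lower. PDGFRB had 27, 31 and 28 counts in control and 2, 2 and 0 counts in HIF2α KO. It passed the filter there only through control, so its fall is description and not a test. LUM had 15, 15 and 22 counts in control and 43, 60 and 31 counts in HIF2α KO and was called higher (log2 fold change 1.16, edgeR adjusted p = 0.0144), a call lost without HIF2α KO replicate 2 (edgeR adjusted p = 0.0553), control replicate 1 (edgeR adjusted p = 0.0569) or control replicate 2 (edgeR adjusted p = 0.0661). The 6 renal and epithelial markers summed to 5600 to 6370 CPM per library, a sum made up mostly of VIM. Of the others, KRT8 was at 374, 412 and 431 CPM in control, 460, 472 and 528 CPM with PT2385 and 570, 614 and 571 CPM in HIF2α KO, and KRT18 at 144, 160 and 179 CPM, 204, 204 and 262 CPM, and 266, 274 and 325 CPM. PAX2 was at 33, 31 and 38.5 CPM, 21.8, 26.7 and 27.2 CPM, and 11.3, 15.9 and 13.8 CPM. In each of these genes the 3 groups did not overlap, and in HIF2α KO KRT8 and KRT18 were called higher and PAX2 lower (log2 fold changes 0.54, 0.85 and -1.30, edgeR adjusted p = 1.01e-04, 4.66e-05 and 2.84e-05). With PT2385 these genes were called in the same directions (log2 fold changes 0.26, 0.47 and -0.44, edgeR adjusted p = 0.0423, 0.0158 and 0.0325). Each of the calls with PT2385 was lost without some single libraries. KRT8 and KRT18 share 525 exon bases on opposite strands.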
